A study of Homo sapiens with 14 samples.

Results

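Transcript levels of 10 genes that build or load plasma lipoproteins, APOA1, APOA2, APOA5, APOB, APOC1, APOC3, APOE, APOH, APOM and MTTP, were followed in Hep3BTAp73β cells over 48 h of TAp73β induction. The genes were found by symbol in the platform annotation, through probe sets that it pairs with 1 gene, and are 10 of the 19775 genes measured in this way. They are read by 21 probe sets. Each gene is represented by its brightest probe set, averaged over all arrays, and the others are described beside it.

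Hep3B is an established human hepatocellular carcinoma line. Hep3BTAp73β cells carry a plasmid for the Tet repressor and one for TAp73β under its control, and were grown from drug-resistant colonies; the methods do not say whether the line is a single clone. Dox+ cultures received doxycycline at 1 µg/mL for 12 h (n = 2), 24 h (n = 2) or 48 h (n = 3), and Dox− cultures of the same cells stayed untreated for the same times (n = 2, 2 and 3). Total RNA of each culture was hybridised to 1 Affymetrix U133 Plus 2.0 array, which gave 14 arrays labelled as biological replicates, and the p-values measure only the spread between these arrays. Doxycycline and TAp73β cannot be told apart in this design, because no doxycycline-treated cells without the TAp73β plasmid are compared here.

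Levels are given as log2 values after RMA, the normalization that the authors applied to the scans, so a difference of 1 is a 2-fold change. Probe sets bind with different strength, and a level is compared between arrays and never between genes. Differences between Dox+ and Dox− cells were tested at each time with limma, and a gene was called where its Benjamini-Hochberg adjusted p over all 19775 genes was under 0.05.

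TP73 itself lay at 7.89 to 8.30 in Dox+ cells and at 5.82 to 6.08 in Dox− cells. ALB, the serum albumin that defines hepatocytes, stood between 14.3 and 14.4 on every array. This is close to the highest value on any array, 14.6, and whether a difference in ALB was compressed there was not tested. Over 11 hepatocyte markers, the mean level of an array was 11.6 to 11.7 in Dox+ cells and 11.7 to 11.9 in Dox− cells, and at 48 h 7 of the 11 were lower, among them TTR (-0.82), FGA (-0.55), FGB (-0.50) and TF (-0.42), and SERPINA1 was higher (0.54). Over 7 markers of enterocytes, which also secrete lipoproteins, it was 5.33 to 5.47 in Dox+ cells and 5.37 to 5.69 in Dox− cells; over 7 macrophage markers, which belong to another source of APOE, it was 5.66 to 5.86 in Dox+ cells and 5.71 to 5.92 in Dox− cells. The marker genes of other cell types that passed at 48 h were VIL1 (-0.35, enterocyte), LYZ (-0.92, macrophage), KRT19 (0.47) and SOX9 (-0.40, both cholangiocyte) and ACTA2 (0.97, stellate cell), and 0 of 6 endothelial markers passed. In a whole culture, fewer cells that express a gene and less RNA per cell cannot be told apart. The 3′ minus 5′ gap of the GAPDH control probe sets, which widens as RNA degrades, was 0.37 to 0.52 in Dox+ and 0.41 to 0.49 in Dox− cells at 48 h. It was wider at 12 h, at 0.96 to 1.77 in Dox+ and 0.89 to 1.12 in Dox− cells, and it differed between the groups at 24 h, at 0.91 to 1.00 in Dox+ and 0.43 to 0.49 in Dox− cells. Its part in the 12 h and 24 h values was not tested.

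Apolipoproteins are the protein coat of lipoproteins, the particles that carry triglyceride and cholesterol in plasma, and the hepatocyte is their main source. A very low density lipoprotein starts when microsomal triglyceride transfer protein, encoded by MTTP, loads lipid onto a growing APOB chain in the endoplasmic reticulum. High density lipoprotein is built on APOA1 and APOA2, while the small APOC proteins, APOA5 and APOE move between particles and set how fast they are lipolysed and cleared.

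At 48 h, 7 of the 10 genes were lower in Dox+ than in Dox− cells and none was higher. The differences were largest for APOM (2.04-fold), APOA1 (1.81-fold) and MTTP (1.79-fold), followed by APOC3 (1.53-fold), APOC1 (1.34-fold), APOH (1.22-fold) and APOA2 (1.17-fold). APOA5, APOB and APOE did not pass the test. Of all genes tested, 12.9% were called lower and 11.3% higher at this time. The median log2 difference was -0.36 over the 10 genes and -0.02 over all genes. In 9 of the 10 genes all Dox+ arrays lay below all Dox− arrays, an arrangement that 21.9% of all genes also had. In APOE all lay above, as in 17.4% of all genes, but the lowest Dox+ array (12.3129) was barely above the highest Dox− array (12.3113).

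**Figure D1:**
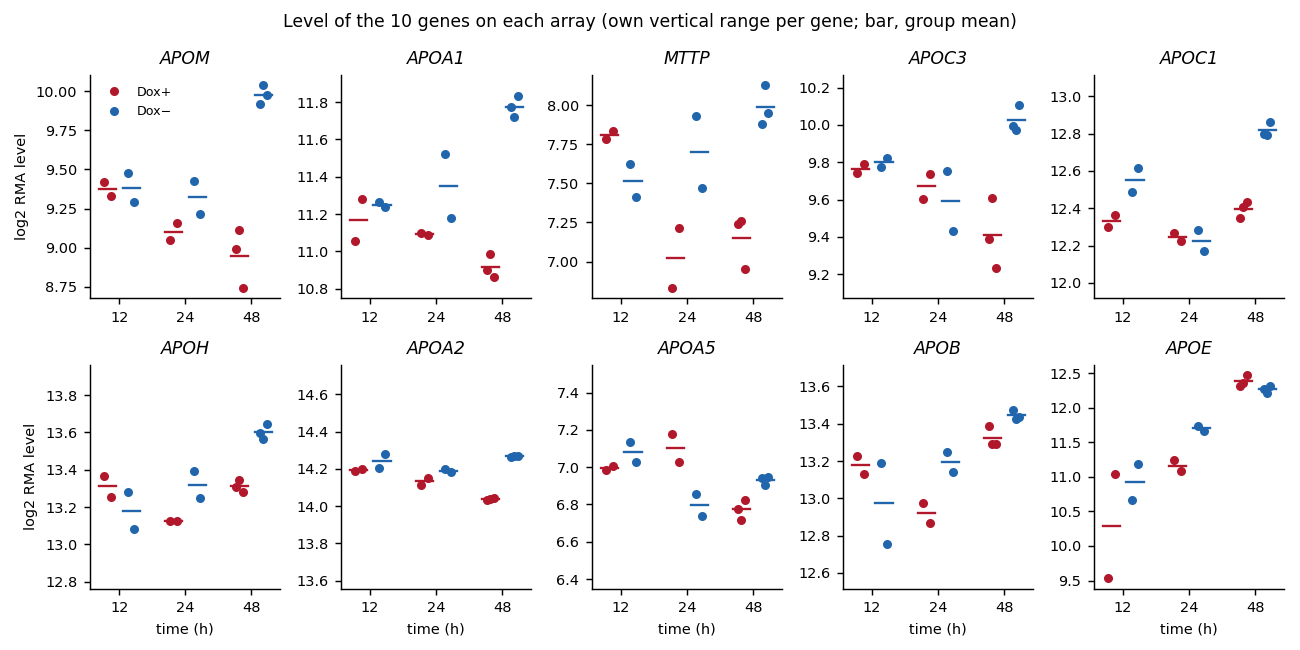
Log2 RMA level of each gene's main probe set on every array at 12, 24 and 48 h, with Dox+ arrays in red and Dox− arrays in blue and a bar at the group mean; each gene has its own vertical range. At 48 h the Dox+ points of 9 genes lie below the Dox− points, and those of APOE lie above, the nearest by very little.

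Among the proteins of high density lipoprotein, APOM differed most between Dox+ and Dox− cells at 48 h. APOM is a lipocalin that stays anchored in the particle and carries sphingosine-1-phosphate. Its 48 h levels were 8.99, 9.11 and 8.74 in Dox+ cells, against 9.92, 10.04 and 9.97 in Dox− cells, with means of 8.95 ± 0.19 in Dox+ and 9.98 ± 0.06 in Dox− cells (SD, n = 3 each). The groups did not overlap, and the gap between them was several times the spread within either. The log2 difference was -1.03 (SE 0.09, limma adjusted p = 6.5e-05). The second APOM probe set gave -1.17 (SE 0.09, limma adjusted p = 1.88e-05 over all probe sets). The 250 bases before the APOM start site, at chr6:31655644-31655893 on the plus strand, are printed below because this gene moved most.
APOM: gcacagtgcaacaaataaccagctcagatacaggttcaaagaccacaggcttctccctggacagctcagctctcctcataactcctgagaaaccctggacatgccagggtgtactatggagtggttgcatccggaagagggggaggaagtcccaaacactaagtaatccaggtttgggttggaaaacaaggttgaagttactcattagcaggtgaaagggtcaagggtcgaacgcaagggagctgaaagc
The RefSeq promoters (GRCh38.p14), from 250 bases before to 50 bases after a start site, were searched on both strands for the nuclear receptor half-site AGGTCA and for the HNF1 half-site GTTAAT. Of 35116 promoters, 13.8% hold the nuclear receptor half-site and 6.88% the HNF1 half-site. The APOM promoter holds neither, so nothing is in capitals. Promoters were found for 7 of the 10 genes, and no matches of the different motifs overlapped. A match is a description of the sequence only.

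APOA1, the main structural protein of high density lipoprotein and the activator of LCAT, had levels of 10.90, 10.99 and 10.86 in Dox+ cells at 48 h, against 11.77, 11.72 and 11.83 in Dox− cells. The highest Dox+ array was thus well below the lowest Dox− array. The log2 difference was -0.86 (SE 0.06, limma adjusted p = 1.69e-05). A second APOA1 probe set gave -0.88, but both are of the kind (_x_at) that may also bind related transcripts. The dim remaining probe set, near a level of 5, gave -0.03 (95% interval -0.23 to 0.17). APOA2, the second protein of these particles, had levels of 14.04 on each Dox+ array, against 14.27 on each Dox− array, with no overlap. Its log2 difference was small at -0.23 (SE 0.05, limma adjusted p = 0.0122). These levels lie close to 14.6, the highest value on any array, and whether the difference was compressed there was not tested. The other APOA2 probe set gave -0.15 and did not pass (limma adjusted p = 0.25 over all probe sets).

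MTTP, which transfers lipid to APOB, had levels of 7.24, 7.26 and 6.95 in Dox+ cells at 48 h, against 7.88, 8.13 and 7.95 in Dox− cells. Every Dox+ array lay below every Dox− array. The log2 difference was -0.84 (SE 0.10, limma adjusted p = 3.2e-04). At 24 h the levels were already apart, at 6.83 and 7.21 in Dox+ cells against 7.93 and 7.47 in Dox− cells, a difference of -0.68 that did not pass the test over all genes (limma adjusted p = 0.0742). The 250 bases before the second of its 2 RefSeq start sites, at chr4:99574574-99574823 on the plus strand, hold the nuclear receptor half-site in capitals 50 bases upstream, read on the opposite strand.
MTTP: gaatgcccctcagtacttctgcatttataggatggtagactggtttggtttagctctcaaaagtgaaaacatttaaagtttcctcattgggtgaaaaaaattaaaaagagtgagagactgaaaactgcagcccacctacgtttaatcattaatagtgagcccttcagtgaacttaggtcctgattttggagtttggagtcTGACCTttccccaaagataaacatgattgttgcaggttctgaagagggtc
The promoter of the other start site holds neither motif, nor do those of APOA2, APOC1 and APOE. APOA5, which did not pass at 48 h, holds the nuclear receptor half-site 235 and 74 bases and the HNF1 half-site 129 bases before its first start site, and the nuclear receptor half-site 156 bases before its second.

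APOB, the structural protein of very low density lipoprotein, did not pass the test on its main probe set. Its levels at 48 h were 13.39, 13.29 and 13.29 in Dox+ cells, against 13.48, 13.42 and 13.44 in Dox− cells. The arrays did not overlap, but the log2 difference was only -0.12 (95% interval -0.25 to 0.01, limma adjusted p = 0.188). With limma's trend and robust options it passed (limma adjusted p = 0.0123). A dimmer APOB probe set read 7.0, 7.0 and 6.74 in Dox+ cells, against 7.18, 7.29 and 7.30 in Dox− cells, and was lower by the test over all probe sets (-0.34, SE 0.09, limma adjusted p = 0.0225). The probe sets of APOB therefore gave different calls.

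Of the exchangeable apolipoproteins, APOC3 and APOC1 were lower in Dox+ cells at 48 h, and APOA5 and APOE did not pass the test. APOC3, an inhibitor of lipolysis and of remnant uptake, had levels of 9.39, 9.61 and 9.23 in Dox+ cells, against 10.00, 9.97 and 10.11 in Dox− cells. The Dox+ arrays spread over a wider range than the Dox− arrays and stayed below them. The log2 difference was -0.61 (SE 0.09, limma adjusted p = 0.0014). The dim second APOC3 probe set gave -0.05 and did not pass (95% interval -0.28 to 0.18, limma adjusted p = 0.82 over all probe sets), so the call rests on 1 probe set. APOC1, an inhibitor of cholesteryl ester transfer, had levels of 12.35, 12.41 and 12.44 in Dox+ cells, against 12.80, 12.79 and 12.86 in Dox− cells, a log2 difference of -0.42 (SE 0.06, limma adjusted p = 7.93e-04). Both APOC1 probe sets were lower in Dox+ cells, and both are _x_at sets that the transcript of the neighbouring pseudogene APOC1P1 may share. APOA5, an activator of lipolysis in plasma, had levels of 6.77, 6.72 and 6.83 in Dox+ cells, against 6.94, 6.91 and 6.94 in Dox− cells, and its difference of -0.16 did not pass (95% interval -0.29 to -0.03, limma adjusted p = 0.0841). The second APOA5 probe set gave -0.18 and did not pass either (limma adjusted p = 0.114 over all probe sets). APOA1, APOC3 and APOA5 are neighbours on 1 chromosome, with APOA4 among them, and the members of this cluster that passed the test were APOA1 and APOC3.

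APOE, the ligand by which remnants bind their receptors, was the single gene of the 10 with a higher mean in Dox+ cells at 48 h. Its levels were 12.31, 12.36 and 12.47 in Dox+ cells, against 12.27, 12.22 and 12.31 in Dox− cells. The groups nearly touched, and the difference of 0.12 did not pass (95% interval -0.03 to 0.26, limma adjusted p = 0.256). The remaining APOE probe sets gave 0.18 and 0.16, and neither passed. APOE lies beside APOC1, and these neighbours differed in outcome at 48 h.

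APOH, which encodes β2-glycoprotein I, a phospholipid-binding plasma protein found in part on lipoproteins, had levels of 13.31, 13.34 and 13.28 in Dox+ cells at 48 h, against 13.60, 13.57 and 13.65 in Dox− cells. The groups were narrow and separate, with a log2 difference of -0.29 (SE 0.06, limma adjusted p = 0.00503). The dim second APOH probe set, near a level of 6, gave -0.08 and did not pass. The 250 bases before its start site, at chr17:66229416-66229665 on the minus strand, hold the HNF1 half-site in capitals at 210 and 49 bases upstream; HNF1 is a homeodomain factor of hepatocytes.
APOH: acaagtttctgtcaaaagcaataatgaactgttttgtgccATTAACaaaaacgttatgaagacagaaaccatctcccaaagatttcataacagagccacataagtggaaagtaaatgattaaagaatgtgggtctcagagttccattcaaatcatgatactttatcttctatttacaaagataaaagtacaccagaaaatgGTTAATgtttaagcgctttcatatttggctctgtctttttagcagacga

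**Figure D2:**
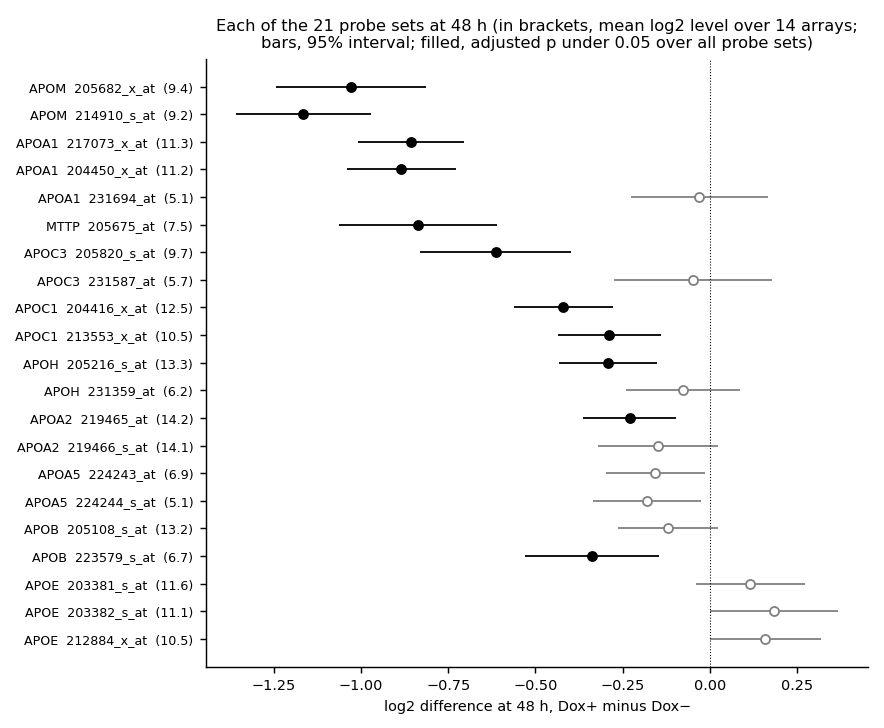
Log2 difference at 48 h (Dox+ minus Dox−, horizontal axis) for each of the 21 probe sets of the 10 genes, with 95% intervals and, in brackets, the mean log2 level over 14 arrays; filled points passed the test over all probe sets. Both APOM sets and both bright APOA1 sets lie left of -0.8, the dim sets of APOA1, APOC3 and APOH lie near 0, and the 3 APOE sets lie right of 0.

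At 12 h none of the 10 genes passed the test, and 0.668% of all genes did. An unadjusted p under 0.05 was reached by 0 of the 10 genes at 12 h (2700 of all genes), by 3 at 24 h (3987) and by 8 at 48 h (6755). The log2 differences at 12 h lay between -0.65 for APOE, where 1 Dox+ array stood far below the other, and 0.29 for MTTP. At 24 h only APOE was called, and lower, where 2.81% of all genes were lower. Its 24 h levels were 11.24 and 11.08 in Dox+ cells, against 11.74 and 11.67 in Dox− cells, a log2 difference of -0.54 (SE 0.13, limma adjusted p = 0.0471). The call held under 5 of 15 alternatives, with limma adjusted p of 4.42e-04 to 0.31: with all probe sets counted the limma adjusted p was 0.0585, and leaving out any of the 4 arrays at 24 h also ended it, with adjusted p of 0.0877 to 0.219. It also coincided with the wider 3′ minus 5′ gap of the Dox+ arrays at that time, whose part in it was not tested. APOA5 had the most positive value at 24 h, with levels of 7.18 and 7.03 in Dox+ cells, against 6.85 and 6.74 in Dox− cells (0.31, SE 0.13, limma adjusted p = 0.236). The remaining 7 genes besides APOE, APOA5 and MTTP lay between -0.27 for APOB and 0.08 for APOC3, and none passed. In 7 of the 10 genes both Dox+ arrays were below both Dox− arrays at 24 h, as in 23.7% of all genes.

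**Figure D3:**
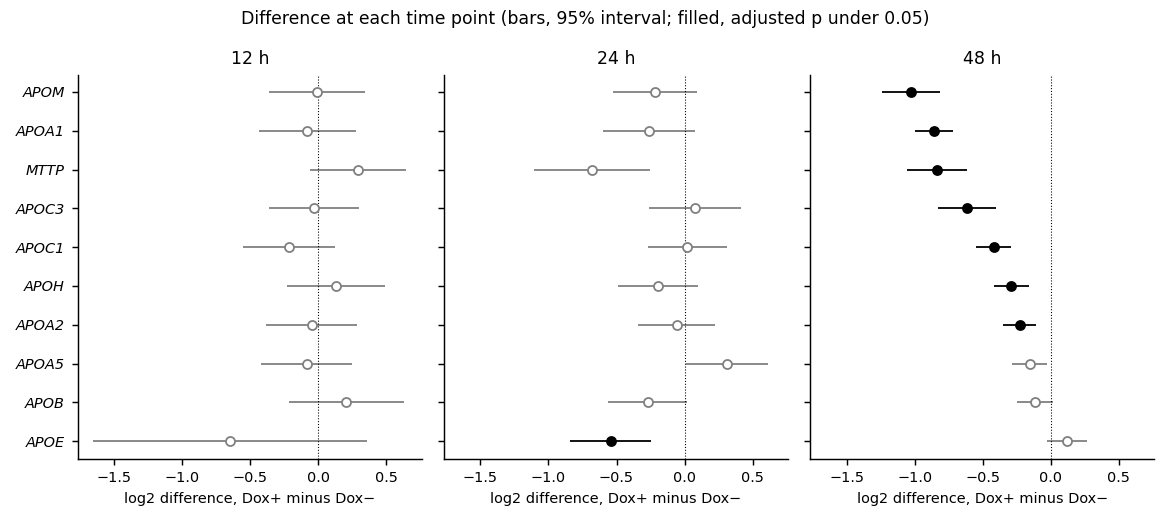
Log2 difference (Dox+ minus Dox−, horizontal axis) of each gene's main probe set at 12, 24 and 48 h, with 95% intervals; filled points had a limma adjusted p under 0.05. No point is filled at 12 h, APOE alone is filled at 24 h, and 7 genes are filled left of 0 at 48 h.

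The 48 h differences were also read as a change with time in each kind of culture. A change between 12 h and 48 h was called where it passed both with and without weights for the arrays of each group, in 1 fit of all 14 arrays. In Dox+ cells MTTP was lower at 48 h than at 12 h by this rule (-0.66, SE 0.15, limma adjusted p = 0.0128), where 2.21% of all genes were. APOE was higher (2.10, SE 0.28, limma adjusted p = 2.62e-04), where 4.54% of all genes were. APOM changed by -0.43 and passed without the weights but not with them (limma adjusted p = 0.0327 and 0.0871). The other genes called lower against Dox− cells at 48 h did not pass in this comparison within Dox+ cells. They were APOC3 (-0.35), APOA1 (-0.25), APOA2 (-0.16), APOC1 (0.06) and APOH (0.001). In Dox− cells 5 of the 10 genes were higher at 48 h than at 12 h, APOE by 1.33, APOM by 0.59, APOA1 by 0.52, APOB by 0.47 and APOH by 0.42, where 7.08% of all genes were higher. Without the second Dox− array at 12 h, and without weights, APOB (0.26, limma adjusted p = 0.111) and APOH (0.32, limma adjusted p = 0.0551) did not pass. In Dox− cells MTTP changed by 0.47 and APOC1 by 0.27, which passed without the weights only (limma adjusted p = 0.0349 and 0.0365 without, and 0.107 for each with them).

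MTTP in Dox+ cells stood at 7.78 and 7.84 after 12 h and at 6.83 and 7.21 after 24 h, and the 48 h arrays read 7.24, 7.26 and 6.95. The 24 h arrays thus read near the 48 h arrays, and the change after 24 h was 0.13 (95% interval -0.20 to 0.45). The step from 12 h to 24 h was not tested. The 3′ minus 5′ gap of Dox+ arrays also differed between 24 h and 48 h, and its part was not tested. The call between 12 h and 48 h was lost without the first or the second Dox+ array at 12 h or without the third at 48 h. APOM in Dox− cells stood at 9.48 and 9.29 after 12 h and at 9.43 and 9.22 after 24 h, and the 48 h arrays read 9.92, 10.04 and 9.97. The 48 h arrays alone stood above the rest. Between 24 h and 48 h, where the 3′ minus 5′ gap of Dox− arrays was alike, APOM (0.65, SE 0.12, limma adjusted p = 0.00665) and APOC1 (0.59, SE 0.09, limma adjusted p = 0.0021) were higher at 48 h in Dox− cells, as were 1.79% of all genes. APOA1 changed by 0.42 over the same interval and did not pass (limma adjusted p = 0.0515).

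APOE had the widest range of the 10 genes over time. Dox+ cells read 9.53 and 11.04 after 12 h, 11.24 and 11.08 after 24 h, and between 12.31 and 12.47 after 48 h. Dox− cells read 10.67 and 11.19 after 12 h, 11.74 and 11.67 after 24 h, and between 12.22 and 12.31 after 48 h. Both kinds of culture ended above their 12 h levels, and the array at 9.53 was also the one with the widest 3′ minus 5′ gap, 1.77. From 24 h to 48 h APOE (1.22, limma adjusted p = 0.015) and APOB (0.40, limma adjusted p = 0.0355) were higher in Dox+ cells, as were 6.56% of all genes. APOA5 was lower over that interval (-0.33, limma adjusted p = 0.0307), as were 4.58% of all genes. The other 2 APOE probe sets changed less between 12 h and 48 h, by 0.90 and 0.50 in Dox+ cells and by 0.68 and 0.36 in Dox− cells. The size of the APOE change with time thus differed between probe sets, and the gap differed between the times compared; its part in the change was not tested.

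**Figure D4:**
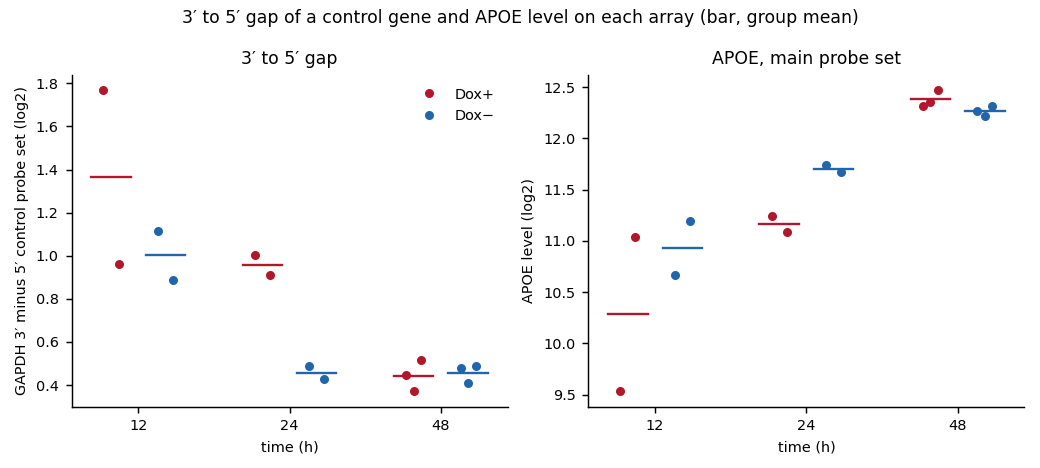
Left, 3′ minus 5′ gap of the GAPDH control probe sets (log2) on each array; right, level of the main APOE probe set (log2) on the same arrays, by time, with Dox+ in red, Dox− in blue and a bar at the group mean. Arrays with a gap above 0.8 are all those of 12 h and the Dox+ arrays of 24 h, and they hold the 6 lowest APOE levels.

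The difference between Dox+ and Dox− cells was itself more negative at 48 h than at 12 h for MTTP, APOM and APOA1. At 12 h it was 0.29 for MTTP, -0.01 for APOM and -0.08 for APOA1, and none passed. For MTTP the contrast thus holds a change of sign. The change in the log2 difference between 12 h and 48 h was -1.13 (SE 0.21) for MTTP, -1.02 (SE 0.16) for APOM and -0.77 (SE 0.15) for APOA1. Their limma adjusted p were 0.011, 0.00446 and 0.0143 without array weights and 0.0473, 0.0286 and 0.0442 with them. Of all genes, 0.48% had such a lower value in both fits. With all probe sets counted and array weights, both APOM probe sets passed, while MTTP (limma adjusted p = 0.0671) and the bright APOA1 probe sets (0.0563 and 0.0693) did not. Against 24 h only APOM passed, with -0.81 (SE 0.16, limma adjusted p = 0.0376 and 0.0439), where 0.162% of all genes did. For MTTP the same value was -0.16 (95% interval -0.62 to 0.30). These values share the 48 h arrays with each other and with the differences given above.

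**Figure D5:**
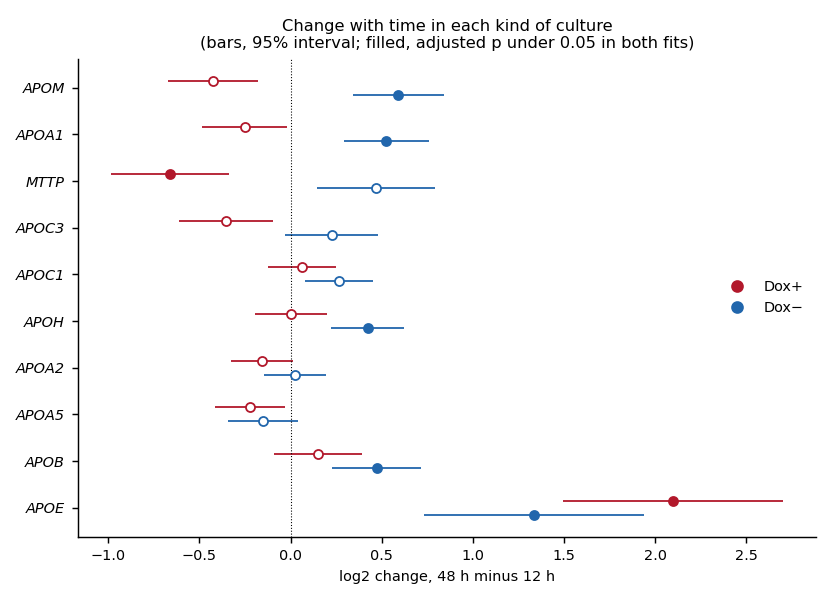
Log2 change of each gene from 12 h to 48 h (48 h minus 12 h, horizontal axis) in Dox+ cultures (red, upper point) and Dox− cultures (blue, lower point), with 95% intervals; filled points passed in both fits. In Dox+ cells MTTP is filled left of 0 and APOE right of it, and in Dox− cells 5 genes are filled right of 0.

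Several genes of the panel varied together over the 14 arrays, which share their times and treatments, so the following correlations are descriptions. Pearson's r was 0.94 between APOA1 and APOM, 0.90 between APOC3 and APOM, 0.87 between APOM and MTTP and 0.86 between APOA1 and APOC3. APOB was closest to APOH (0.89), and APOE had values between -0.59 with APOA5 and 0.52 with APOB. Among 2375 genes that varied over the arrays (SD of at least 0.3), those most like APOA1 were IQGAP2 (0.97), LOX (0.97) and RFX6 (0.96). IQGAP2 was also among the nearest 3 of APOM (0.95), beside RFX6 (0.94) and APOA1, and of APOC3 (0.90), beside TROAP (0.91) and APOM. The genes nearest to MTTP were SPAG5 (0.97), KNL1 (0.94) and MIS18A (0.94), which encode proteins of the mitotic spindle and the centromere.

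Of 24 measured transcription factors and cofactors, of 30 listed, that are known to act on apolipoprotein genes, 9 were lower and 1 was higher at 48 h, where 12.9% of all genes were lower and 11.3% higher. At 24 h 4 were lower, beside 2.81% of all genes. HNF4A and NR1H4 were not among the 24 measured, so the list holds no value for them. NR0B2, which encodes the small heterodimer partner, a repressor of other nuclear receptors, had levels of 7.72, 7.75 and 7.73 in Dox+ cells at 48 h, against 8.89, 8.98 and 9.02 in Dox− cells. Its difference of -1.23 (SE 0.06, limma adjusted p = 1.33e-06) followed one of -1.11 at 24 h (limma adjusted p = 0.00189). The orphan receptor NR2F1 (-1.01), the pioneer factors FOXA3 (-0.65) and FOXA1 (-0.46), the liver receptor homologue NR5A2 (-0.54) and the coactivator PPARGC1A (-0.44) were also lower at 48 h, while FOXO1, which drives MTTP and APOC3 in mouse liver, was higher (0.75, SE 0.06, limma adjusted p = 4.78e-05). PPARGC1A was dim, with 48 h levels of 4.82, 4.63 and 4.69 in Dox+ cells, against 5.02, 5.08 and 5.36 in Dox− cells. PPARA gave -0.20 (limma adjusted p = 0.205) and CREB3L3 gave -0.05 (limma adjusted p = 0.692), and neither passed. The list's median difference was -0.10, beside -0.02 over all genes.

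Of 22 measured genes of 24 listed that fold, load and export lipoproteins, 3 were higher and 2 lower at 48 h, with a median of -0.03, beside 11.3% higher and 12.9% lower of all genes. P4HB, the subunit that MTTP's product pairs with, gave -0.04 (limma adjusted p = 0.717), with levels of 12.5 in Dox+ and 12.6 in Dox− cells, and the chaperone genes HSPA5 (0.08) and CANX (-0.04) did not pass. PLTP, the phospholipid transfer protein, was higher (0.98, SE 0.06, limma adjusted p = 6.81e-06), and SAR1B, the GTPase of the vesicles that carry these particles, was lower (-0.25, limma adjusted p = 0.0261). PNPLA3, a lipid droplet protein, and DGAT2, a triglyceride synthase, were higher by 0.35 and 0.20, and SURF4, a cargo receptor of the endoplasmic reticulum, was lower (-0.21). Among 13 measured lipoprotein receptors and partners of 16 listed, 4 were higher and 3 lower, where 11.3% and 12.9% of all genes were. CD36, a scavenger receptor for fatty acids and oxidised lipoprotein, had the largest rise (2.15, SE 0.06, limma adjusted p = 6.24e-08), and it was already higher at 12 h (1.42, limma adjusted p = 0.0135). VLDLR, a receptor for APOE-bearing particles, rose by 1.07 (limma adjusted p = 2.97e-04), and SCARB1, the high density lipoprotein receptor, gave 0.02 (limma adjusted p = 0.89). The proteoglycan gene SDC1 (0.78) and LRPAP1 (0.65), the chaperone of the receptor family, were higher, and the receptor gene LRP6 was lower (-0.38).

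Of 15 measured genes of 17 listed that remodel lipoproteins in plasma or at the cell surface, 2 were higher and 3 lower at 48 h, beside the same shares of all genes, 11.3% and 12.9%. ABCA1, the transporter that loads cholesterol onto APOA1, had levels of 8.0, 7.93 and 7.50 in Dox+ cells, against 8.84, 8.82 and 8.77 in Dox− cells, a difference of -1.0 (SE 0.12, limma adjusted p = 3.21e-04). LCAT, the enzyme that APOA1 activates, moved in the other direction (0.84, SE 0.06, limma adjusted p = 2.08e-05). ANGPTL8, an inhibitor of lipoprotein lipase, was lower (-1.31, SE 0.08, limma adjusted p = 5.34e-06). Of the protease genes, FURIN was lower (-0.42) and BMP1 higher (0.31). Of the 15 other apolipoprotein genes measured out of 16 listed, 3 were higher (APOD, APOL6 by 0.29 and APOOL by 0.23) and CLU, the gene of apolipoprotein J, was lower (-0.53, SE 0.05, limma adjusted p = 1.41e-04), again beside 11.3% and 12.9% of all genes. APOD, a lipocalin like APOM, ran against it, with levels of 6.0, 6.58 and 7.10 in Dox+ cells at 48 h, against 4.83, 4.97 and 5.07 in Dox− cells (1.61, SE 0.22, limma adjusted p = 8.15e-04). APOC2, in 1 cluster with APOC1 and APOE, and APOA4, next to APOC3 and APOA5, were dim and gave -0.19 and -0.20 without passing.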

How the data were processed

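The authors hybridised total RNA to Affymetrix U133 Plus 2.0 arrays and deposited RMA-normalized log2 values for 54675 probe sets; R 3.5.1 is named in the submitters' processing notes and BRB-ArrayTools in the methods, by which outlier arrays had been removed. The values of 14 arrays were used as deposited. Probe sets were named through the platform annotation, in which 41091 have 1 gene, 1801 several and 11721 none listed; 62 control probe sets were left out of the tests. No 2 arrays held identical values. Promoter sequences are RefSeq's.

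At each time, Dox+ and Dox− arrays of that time entered a two-sided limma test (version 3.58.1, R 4.3.3, lmFit then eBayes). P-values were adjusted over 19775 genes by Benjamini-Hochberg, and 0.05 was the threshold. Changes with time and differences between time points came from 1 fit of all 14 arrays, without and with array weights per group (both had to pass). Further software was the data.table package (1.17.8) and pandas 2.3.3, and figures used matplotlib 3.10.9 in Python 3.11.15. The tests were checked on simulated data. For changes with time the simulated spread was the same in every group, unlike that of the arrays, so this check does not cover unequal spread.

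The members and gene lists were chosen with earlier results of these data known. Named genes are all members, the most changed genes of each list among those called at 48 h (at most 5), the 3 genes of the assembly and secretion list with the brightest probe sets, selected regulators, receptors and apolipoproteins whatever their result, and the 3 genes nearest in pattern to each member past the test with a change of at least 0.5. The number of arrays limits the precision. The alternatives are given with their effects at the end.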

Additional observations from a re-analysis of the deposited data

Results flagged for a closer look

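In 3 genes the difference between Dox+ and Dox− cells at 48 h itself differed from that at an earlier time, by an interaction contrast that passed in limma both with and without array weights. Relative to 12 h, the log2 difference changed by -1.13 for MTTP, by -1.02 for APOM and by -0.77 for APOA1. Relative to 24 h, it changed by -0.81 for APOM. The APOM and MTTP values relative to 12 h passed under each of 20 alternatives, the APOA1 value under 19 of 20 and the APOM value relative to 24 h under 11 of 20. Each alternative was judged by 1 fit, without array weights unless the weights were the alternative, which is less strict than passing in both. Some alternatives left out an array of a time that is not in the contrast. With array weights the limma adjusted p relative to 12 h were 0.0473 for MTTP, 0.0286 for APOM and 0.0442 for APOA1. With all probe sets counted and array weights, MTTP (limma adjusted p = 0.0671) and the bright APOA1 probe sets (0.0563 and 0.0693) did not pass relative to 12 h. By the same fit the main APOM probe set did not pass relative to 24 h (limma adjusted p = 0.0585). The 12 h arrays had a wider 3′ minus 5′ gap in the GAPDH control probe sets than the 48 h arrays, and its part in these values was not tested.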

How the results depend on the processing

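The count of 7 genes lower at 48 h stayed at 7 when any 1 array was left out and was 5 to 8 under the other alternatives; none of the 10 was called higher at 48 h in any of them. Without _x_at probe sets APOA1 lost its call (limma adjusted p = 0.851) and APOC1 had no probe set left to test. APOM, whose main probe set is also an _x_at set, kept its call. With the most variable probe set APOA2, APOC3 and APOH lost their calls and APOB gained one.

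At 12 h, leaving out 1 array gave 0 to 1 lower members and 4 to 227 genes called, beside 132. All 14 arrays in 1 fit called 1683 genes, every probe set 71 and the most variable probe set 87. An ordinary t-test with pooled variance called 0 (2700 had an unadjusted p under 0.05 in limma). For the arrays the paper names a class comparison in BRB-ArrayTools, and it does not say whether that was such a t-test.

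At 24 h, beside 1 lower member and 1152 genes, leaving out 1 array gave 0 to 1 and 647 to 863. Lower members numbered 2 with equal array medians or without dim genes and 3 with the trend and robust options. They numbered 0 with every probe set, the most variable probe set, quantile normalization or the ordinary t-test. Genes called were 2308 with 14 arrays, 2143 with every probe set, 2220 with trend and robust options and 0 by the t-test (3987 at an unadjusted p under 0.05 in limma). The share called higher was 51.7%, but 64.1% after quantile normalization and 33.9% with equal array medians (46.7% and 32.3% at 48 h without and with equal medians). At 48 h, 14 arrays in 1 fit called 2798 genes in place of 4778, and leaving out 1 array 3832 to 4208.

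The labels do not say that a replicate number marks a shared culture or day, and the numbers were not taken to pair the arrays: deviations of same-numbered arrays correlated at 0.25 at 12 h, -0.11 at 24 h and 0.09 to 0.11 at 48 h. With the replicate number as a block, 469, 1202 and 4719 genes were called at 12, 24 and 48 h, APOE lost its 24 h call (limma adjusted p = 0.0541), MTTP gained one (0.0445) and the 7 members stayed lower at 48 h. The numbers crossed at 24 h, an alternative chosen after seeing the data, gave 1593 genes and 2 lower members.

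Without array weights, 1823 genes changed between 12 h and 48 h in Dox+ cells, 5231 in Dox− cells, and 633 and 134 in the contrasts against 12 h and 24 h; leaving out 1 array gave 1071 to 2298, 2987 to 5786, 302 to 1363 and 19 to 268. Array weights gave 2510 in Dox− cells and 216 against 12 h, and dim genes left out 3327 in Dox− cells. Lower members in Dox+ cells, 2 in that fit, were 1 with weights or the most variable probe set, 4 after quantile normalization and 0 to 3 without 1 array; higher ones, 1, were 2 with the most variable probe set. In Dox− cells, 7 higher members became 4 to 7 without 1 array, and the most variable probe set and quantile normalization each gave 1 lower; with that probe set APOC3 read -0.54 and APOH -0.29, against their main directions. Against 12 h, 3 lower members became 5 without dim genes and 2 to 5 without 1 array, with 0 to 1 higher. Against 24 h, 1 became 0 with the most variable probe set, 4 with trend and robust options and 0 to 3 without 1 array. Taking 24 h in place of 12 h, chosen after seeing the data, gave 584 genes and 2 higher members in Dox− cells, and 2 higher and 1 lower in Dox+ cells, with MTTP at 0.13. The causes of these shifts were not tested.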

Other observations

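Single arrays stood apart for 2 probe sets of the panel. The dim APOH probe set read 7.90 on the first Dox+ array at 12 h and 5.99 on the second, against 6.12 and 6.49 on the Dox− arrays of that time, while the main APOH probe set read 13.37 and 13.25 on the same Dox+ arrays. The main APOE probe set read 9.53 on that first Dox+ array and 11.04 on the second. The groups of 2 arrays are too small for a test of this.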
